A study of Mus musculus with 8 samples.

Results

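The oncofetal genes examined in brain endothelial cells (ECs) were *Hmga1*, *Hmga2*, *Igf2bp1*, *Igf2bp2*, *Igf2bp3* and *Lin28b*. They are 6 of the 49315 genes counted, were taken by name, and were chosen with the mutant against wild-type differences of these libraries already known. All 6 passed the filter on low counts that left 16887 genes for testing. For that reason their own levels, fold changes and counts of calls are given below as a description that supports nothing, and p-values are given only for other genes.

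The series holds 8 libraries of poly(A) RNA, 4 labelled Mutant and 4 labelled Wild type, each from the brain ECs of 1 pup. Mutant pups carry the genotype R26 GT-Map2k1-GFP/+;Tg-Cdh5CreER+/-, in which a tamoxifen-activated Cre driven by the endothelial *Cdh5* promoter removes a stop cassette from the *Rosa26* locus and so switches on a cDNA of *Map2k1* (p.K57N), an activated form of the kinase MEK1, together with GFP. All pups, wild-type littermates included, were treated with tamoxifen on day 1 after birth (P1), and ECs were collected on day 9 (P9) by binding to beads coated with an antibody against CD31, a surface protein of ECs. As a model the mutant group is limited in several ways. Recombination is mosaic, so a mutant library mixes recombined with non-recombined ECs. The CAG promoter drives the cDNA in addition to both endogenous alleles, and the mutant brains held vascular malformations when cells were collected. The labels give the controls only as wild type, and according to the methods of the study they were drawn from the litters of the mutants in equal numbers. In bulk libraries of this kind, fewer cells of a type cannot be told apart from less RNA per cell.

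HMGA proteins are small chromatin proteins that bind the minor groove of AT-rich DNA through AT-hooks and bend it. IGF2BP proteins bind mRNAs in the cytoplasm, many of them carrying N6-methyladenosine (m6A), and affect their stability, localization and translation. LIN28 proteins bind the precursors of the let-7 microRNAs and block their maturation, while mature let-7 in turn represses mRNAs of *Lin28*, *Igf2bp* and *Hmga2* through sites in their 3′ untranslated regions (3′UTRs). All 3 families are known for high expression in the embryo, low expression in most adult tissues and renewed expression in tumours, hence the name oncofetal.

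The sites that tie these genes to let-7 are shown first, because the pathway is defined by them. Of 10 mature mouse let-7 sequences in RefSeq (GRCm38.p6), 9 shared the same seed, bases 2 to 8 from the 5′ end. The following 3 members of the family show the shared seed in capitals and the differences outside it.
let-7a-5p: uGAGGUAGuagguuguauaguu
let-7d-5p: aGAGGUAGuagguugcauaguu
let-7g-5p: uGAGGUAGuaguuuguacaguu

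The DNA letters that pair with this seed are CTACCTC, and CTACCTCA is the longer 8-base form. Over the 21037 genes with an annotated 3′UTR (GENCODE vM21, GRCm38, the sense strand only), 9.02% held the 7-base form and 3.06% the 8-base form, which includes the 7-base form. Each of the 6 oncofetal genes held at least 1 of the 7-base form, and all but *Hmga1* held the 8-base form. *Hmga2*, *Igf2bp1* and *Lin28b* each held 4 matches. Among 3′UTRs of like length, between 0.8 and 1.25 times as long, 4 or more matches were found in 0.082% of those like *Hmga2*, 0.166% of those like *Igf2bp1* and 0.221% of those like *Lin28b*. *Hmga1*, *Igf2bp2* and *Igf2bp3* each held 1 match, as 8.2% to 13.3% of 3′UTRs of like length did. These matches are letters in the reference, and mature let-7 was not measured in the libraries. The 8-base match of each gene that holds one, or for *Hmga1* its 7-base match, is shown in capitals at the 3′ end of a 22-base window, written 5′ to 3′ on the strand of the gene.
*Hmga1*, chr17:27563278-27563299, plus strand: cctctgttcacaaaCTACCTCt
*Hmga2*, chr10:120364224-120364245, minus strand: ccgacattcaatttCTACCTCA
*Igf2bp1*, chr11:95961778-95961799, minus strand: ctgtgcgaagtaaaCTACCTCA
*Igf2bp1*, chr11:95959357-95959378, minus strand: agcagtgctattaaCTACCTCA
*Igf2bp1*, chr11:95958763-95958784, minus strand: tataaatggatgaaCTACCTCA
*Igf2bp2*, chr16:22059473-22059494, minus strand: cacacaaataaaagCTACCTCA
*Igf2bp3*, chr6:49086787-49086808, minus strand: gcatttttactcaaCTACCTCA
*Lin28b*, chr10:45381022-45381043, minus strand: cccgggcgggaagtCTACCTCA

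Between 24833373 and 34196955 reads were counted on genes in the mutant libraries and between 28146348 and 32208421 in the wild-type libraries. *Map2k1*, the gene of the introduced cDNA, stood at 12692 to 18734 normalized counts in mutant and at 1506 to 1762 in wild-type libraries, which matches the labels of all 8. Normalized counts are counts scaled by the TMM method of edgeR to the mean library size. The 10 endothelial markers summed to 12248 to 14840 CPM (counts scaled to a library of fixed size) in mutant and 11524 to 13968 in wild-type libraries. Single markers differed within that sum, 3 higher and 3 lower at an adjusted p under 0.05 (edgeR), and *Cdh5* had a log2 fold change of 1.11. Markers of other cells were present and none was at 0 in any library. Summed levels of neural progenitor markers were lower in every mutant library (325 to 453 against 644 to 805 CPM). That sum was carried by *Nes* (means of 9406 normalized counts in mutant and 15372 in wild type) and *Prom1* (2193 and 5898). All 6 progenitor markers were lower at an adjusted p under 0.05 (edgeR). Summed levels were also lower in every mutant library for neuron markers (19.4 to 28 against 29.7 to 67.1). Of the 6 neuron markers 4 were called lower, while *Rbfox3* was higher (log2 fold change 1.19, adjusted p = 0.0514, edgeR). Sums of oligodendrocyte markers (62.9 to 107 against 112 to 297) and red blood cell markers (87 to 285 against 531 to 922) were lower too. Astrocyte markers summed higher (617 to 741 against 358 to 425), a sum carried by *Gja1*, which ECs also express (log2 fold change 0.8). Of the other astrocyte markers *Aldh1l1* was lower (-0.96, adjusted p = 0.0146, edgeR), and the median of the 5 was -0.6. The sums for pericytes, fibroblasts, microglia, neutrophils and platelets, and proliferating cells overlapped between the groups. Within these lists the pericyte marker *Abcc9* was higher (log2 fold change 1.78, adjusted p = 0.000236, edgeR). Of the 9 pericyte and smooth muscle markers 3 were higher and 0 lower at an adjusted p under 0.05. That is beside 21.5% and 22.9% of all genes, and the median of the 9 was 0.1. Of the 5 fibroblast markers *Pdgfra* was lower (-1.03, adjusted p = 0.000586, edgeR). *Lum* (0.67, adjusted p = 0.00704, edgeR) and *Col1a1* (0.39, adjusted p = 0.0319, edgeR) were higher, and the median of the 5 was 0.39.

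The 2 *Hmga* genes were higher in all 4 mutant libraries than in any wild-type library, and *Hmga2* had the largest difference of the 6 genes. *Hmga2* (ENSMUSG00000056758, chr10:120361275-120476469, minus strand) encodes the HMGA protein best known from embryonic growth and from tumours. Its normalized counts were 229, 311, 296 and 1086 in mutant replicates 1 to 4 and 6.45, 13.2, 9.51 and 7.38 in wild-type replicates 1 to 4. The groups were far apart, and within the mutant group replicate 4 stood well above the other 3. The means were 481 ± 405 for mutant and 9.12 ± 2.98 for wild-type ECs (SD, n = 4 each), and the log2 fold change in the edgeR fit was 5.7 ± 0.6 (SE). It ranked 21 of the 16887 genes tested when these were ordered from the highest fold change down. In wild-type libraries *Hmga2* rested on 7 to 14 unscaled counts and in mutant libraries on 181 to 1248, so the wild-type level carries most of the counting error.

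Mutant replicate 4 enlarged the *Hmga2* difference, most of which on the log2 scale remained without it. *Hmga2* in that library was 3.9 times the mean of the other 3 mutant libraries, and 99.7% of the genes tested stood lower on that scale. Without it the mutant mean was 279 ± 43.4 (SD, n = 3), which is 30.5 times the wild-type mean, and the log2 fold change was 4.93. *Map2k1* had 18734, 12692, 12707 and 14342 normalized counts in mutant replicates 1 to 4. Replicate 4 thus lay below replicate 1 and above replicates 2 and 3, and the part of *Map2k1* in the *Hmga2* level was not tested. Mutant replicate 4 also had the lowest sum of red blood cell markers (87 CPM) and of neural progenitor markers (325 CPM) in the series. The progenitor sum was carried by *Nes* and *Prom1*, at 7949 and 1608 normalized counts in that library, each the lowest of the mutant group. *Hes5* was also lowest there (2.61), while *Fabp7* (29.6) was not. *Sox2* (28.7) and *Pax6* (40) were the highest of the mutant libraries. The part of cell makeup in the *Hmga2* level was not tested. The sample descriptions begin with a label shared by replicates 1 and 2 and differing for replicate 3 and for replicate 4, and the labels do not say whether it marks the litter. Within these sets the log2 difference of *Hmga2* was 4.57 for replicates 1 and 2, 4.69 for replicate 3 and 6.86 for replicate 4, with 1 library per group in the last 2 sets.

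*Hmga1* (ENSMUSG00000046711, chr17:27556620-27563674, plus strand) encodes the more widely expressed HMGA protein, and its coding sequence was identical to that of *Hmga2* at 69.1% of 324 aligned bases. Its normalized counts were 4528, 3704, 3831 and 5562 in mutant replicates 1 to 4 and 1835, 1816, 2321 and 2420 in wild-type replicates 1 to 4. The groups did not overlap, and replicate 4 was again the highest of the mutant libraries. The means were 4406 ± 851 and 2098 ± 318 (SD, n = 4 each), with a log2 fold change of 1.07 ± 0.14 (SE). Without mutant replicate 4 it was 0.96, under the limit of 1 used for a call. Within the labelled sets the log2 difference of *Hmga1* was 1.17 for replicates 1 and 2, 0.72 for replicate 3 and 1.2 for replicate 4. *Hmga1b*, a single-exon copy on chromosome 11 whose coding sequence was identical to that of *Hmga1* over all 320 aligned bases, had 16 to 44 unscaled counts in mutant and 9 to 17 in wild-type libraries. How reads that fit both copies were counted is not given, so the division between *Hmga1* and *Hmga1b* is uncertain. *AI413582*, a gene on the opposite strand that overlaps *Hmga1*, had 113 to 227 counts.

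**Figure D1:**
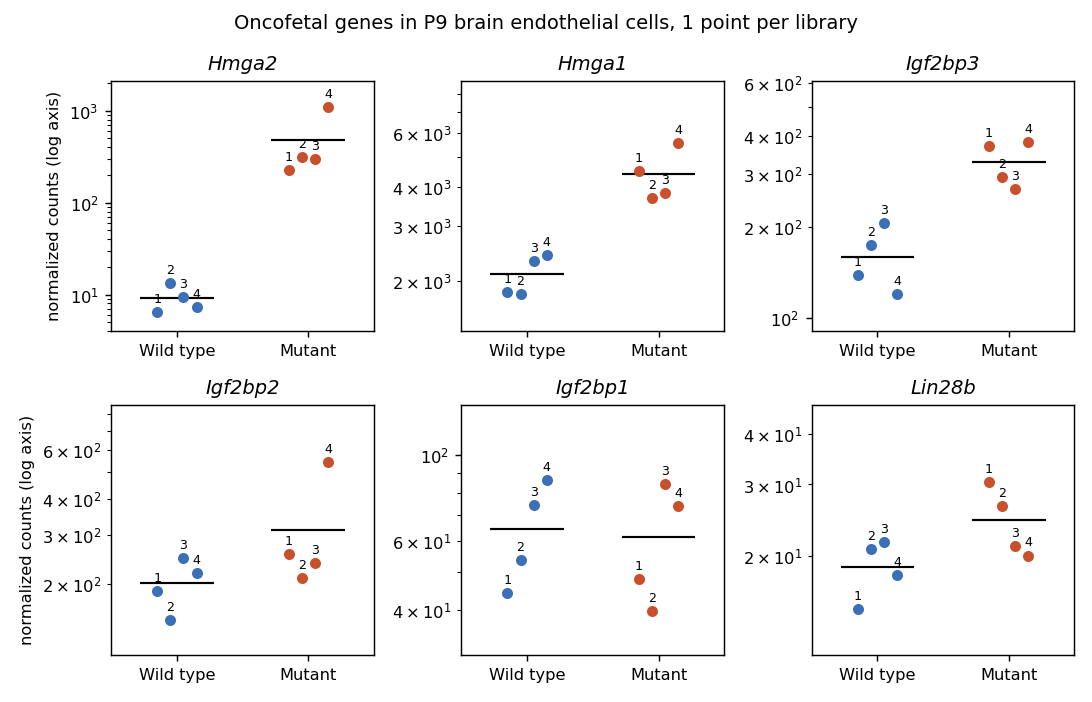
Normalized counts of the 6 oncofetal genes, one panel per gene, on a log axis. Each point is 1 library with its replicate number, blue for wild type and red for mutant, and the bar is the group mean. *Hmga2*, *Hmga1* and *Igf2bp3* have no overlap between the groups, and mutant replicate 4 stands apart in *Hmga2* (1086) and *Igf2bp2* (541).

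The 3 *Igf2bp* genes, which encode close relatives with coding sequences identical at 71.2% to 71.6% of aligned bases, differed from each other in how the mutant compared with the wild type. *Igf2bp3* was higher in every mutant library, *Igf2bp2* mainly in 1, and *Igf2bp1* in neither group. *Igf2bp3* (ENSMUSG00000029814, chr6:49085223-49214957, minus strand), often re-expressed in carcinomas, had 370, 294, 268 and 383 normalized counts in mutant replicates 1 to 4. Its wild-type values were 139, 175, 206 and 120 in the same order. All mutant libraries lay above all wild-type libraries, and the values of replicate 3 in both groups, 268 and 206, lay closest to each other. The means were 329 ± 56.2 and 160 ± 38 (SD, n = 4 each), with a log2 fold change of 1.04 ± 0.19 (SE). This value lies just above the limit of 1, and it fell to 0.98, 0.99 and 0.92 without mutant replicate 4, wild-type replicate 1 and wild-type replicate 4. Within the labelled sets the log2 difference of *Igf2bp3* was 1.07 for replicates 1 and 2, 0.38 for replicate 3 and 1.66 for replicate 4. *Malsu1*, on the opposite strand and overlapping *Igf2bp3*, had 97 to 185 counts, and whether counting used the strand is not given.

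*Igf2bp2* (ENSMUSG00000033581, chr16:22059009-22163299, minus strand) is the family member most widely kept in adult tissues. It had 257, 211, 239 and 541 normalized counts in mutant replicates 1 to 4 and 189, 150, 247 and 220 in wild-type replicates 1 to 4. Mutant replicates 1, 2 and 3 lay within or close to the wild-type range and replicate 4 lay far above it. The means were 312 ± 154 and 202 ± 41.7 (SD, n = 4 each), with a log2 fold change of 0.64 ± 0.29 (SE). Without mutant replicate 4 the mutant mean was 236 ± 23.1 (SD, n = 3), 1.17 times the wild-type mean, and the log2 fold change was 0.25. Within the labelled sets the log2 difference of *Igf2bp2* was 0.46 for replicates 1 and 2, -0.05 for replicate 3 and 1.29 for replicate 4.

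*Igf2bp1* (ENSMUSG00000013415, chr11:95957163-96005940, minus strand), the member tied most strongly to fetal tissues, had 48.1, 39.8, 84.2 and 74 normalized counts in mutant replicates 1 to 4. In wild-type replicates 1 to 4 it had 44.2, 53.6, 74.4 and 86.5. In both groups replicates 3 and 4 were higher than replicates 1 and 2, and the groups overlapped throughout. The means were 61.5 ± 21 and 64.7 ± 19.2 (SD, n = 4 each), with a log2 fold change of -0.06 ± 0.3 (SE).

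*Lin28b* (ENSMUSG00000063804, chr10:45376620-45486395, minus strand) encodes the let-7 inhibitor of the group. Its normalized counts were 30.4, 26.5, 21.1 and 20 in mutant replicates 1 to 4 and 14.7, 20.7, 21.6 and 17.9 in wild-type replicates 1 to 4. Mutant replicates 1 and 2 lay above the wild-type range and replicates 3 and 4 inside it. The means were 24.5 ± 4.86 and 18.7 ± 3.09 (SD, n = 4 each), with a log2 fold change of 0.38 ± 0.26 (SE). *Lin28b* rested on 16 to 25 unscaled counts in each library, so counting error is a large part of its spread. Mutant replicate 4, the highest library for *Hmga2* and *Igf2bp2*, was the lowest mutant library for *Lin28b*. The paralog *Lin28a*, whose coding sequence was identical to that of *Lin28b* at 73.2% of 593 aligned bases, had 0 to 3 unscaled counts in mutant and 1 to 4 in wild-type libraries. These counts lie at about 3, the number that a true level too low to be seen can give. *Lin28a* did not pass the filter on low counts, so it was not tested and no fold is given.

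A gene was called where its adjusted p was under 0.05 and its absolute log2 fold change was over 1. Of all genes tested, 14.0% were called, 5.90% higher and 8.05% lower in mutant libraries. Among the 6 oncofetal genes 3 were called, *Hmga1*, *Hmga2* and *Igf2bp3*, each higher, and the median log2 fold change of the 6 was 0.84 beside -0.02 over all genes. Since the genes were chosen on this contrast, the count is a description. Without mutant replicate 4, *Hmga2* was the 1 gene of the 6 still called. Groups that did not overlap with the mutant higher were found for 20.6% of all genes and for these same 3.

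**Figure D2:**
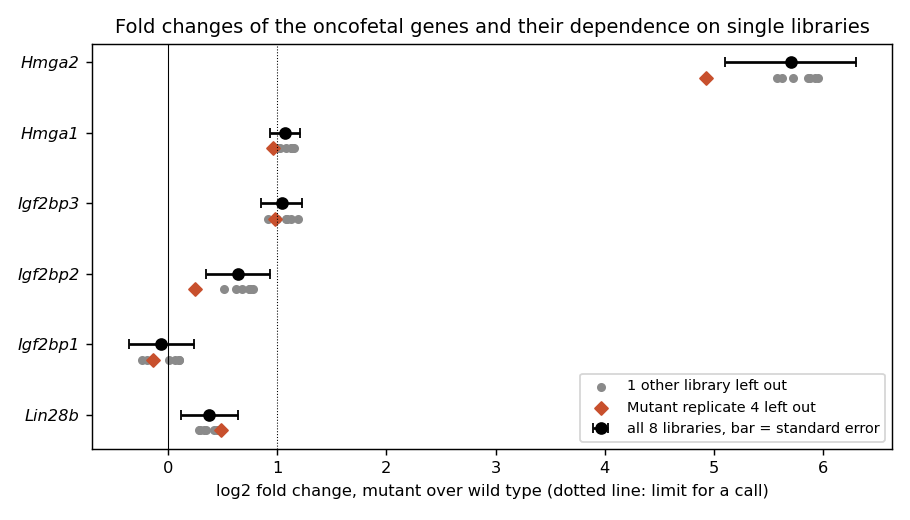
Log2 fold change, mutant over wild type, of the 6 oncofetal genes. Black points are the fit of all 8 libraries with the standard error, grey points fits without 1 other library, and red diamonds fits without mutant replicate 4. The dotted line marks the limit of 1, and the fold of *Hmga2* moves from 5.7 to 4.93 without that library while that of *Igf2bp2* moves from 0.64 to 0.25.

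Levels between genes were compared per length, as RPKM, which divides the scaled counts by the length of the gene model. In wild-type ECs *Hmga1* was by far the highest, at 35.5 ± 5.38 (SD, n = 4). *Igf2bp2* followed at 0.953 ± 0.197 RPKM and *Igf2bp3* at 0.661 ± 0.157 RPKM, with ranges that overlapped. *Igf2bp1* was lower than both at 0.225 ± 0.067 RPKM. *Lin28b* at 0.0696 ± 0.0115 RPKM and *Hmga2* at 0.0454 ± 0.0148 RPKM were the lowest, and their ranges also overlapped. In mutant ECs the last of these became the second highest, with a mean *Hmga2* level of 2.39 ± 2.02 RPKM (SD, n = 4) that spanned 1.14 to 5.4 RPKM. *Igf2bp2* at 1.48 ± 0.727 and *Igf2bp3* at 1.36 ± 0.232 RPKM lay inside or near that span, while *Hmga1* reached 74.6 ± 14.4 RPKM.

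**Figure D3:**
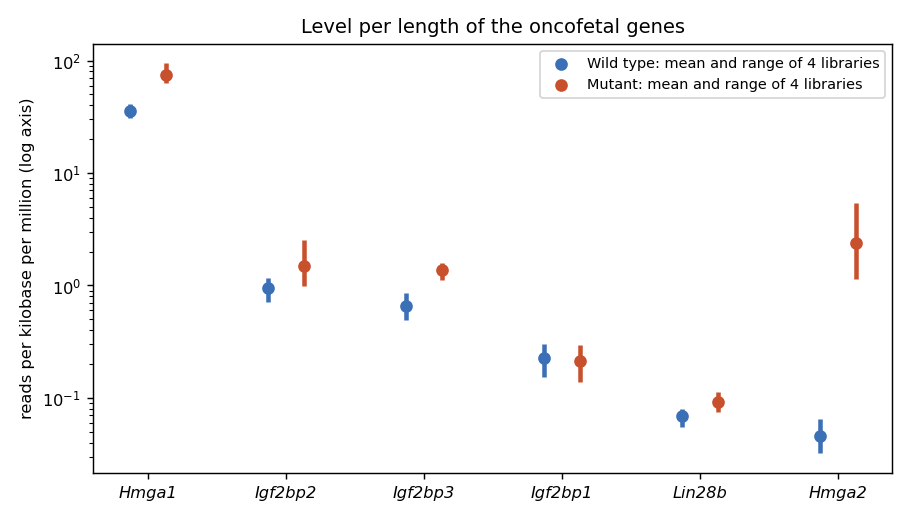
Level per length of the 6 oncofetal genes in RPKM on a log axis, ordered by wild-type mean. Points are means and lines the range of 4 libraries. *Hmga1* lies highest in both groups, and *Hmga2* goes from the lowest wild-type mean (0.0454) to 2.39 in mutant libraries.

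Spread between pups also differed among the genes. The coefficient of variation of *Hmga2* was 84.4% over mutant and 32.6% over wild-type libraries, and that of *Igf2bp2* was 49.3% and 20.7%. For *Hmga1* it was 19.3% and 15.1%, and for *Igf2bp3* 17.1% and 23.8%. In mutant replicate 4 *Hmga1* was 1.38, *Igf2bp1* 1.29 and *Igf2bp3* 1.23 times the mean of the other mutant libraries, while *Lin28b* was 0.77 times.

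Promoters were read because 3 of the genes were higher in the same libraries. Windows of 250 bases before to 50 after the start were read from RefSeq (GRCm38.p6), which held them for 5 of the 6 genes. None held the letters of an ETS motif (CCGGAAG) or an AP-1 motif (TGANTCA), on either strand, which 8.86% and 7.81% of 32851 promoters held. The E-box CACGTG stood 2 times in the *Igf2bp3* window and 1 time in that of *Lin28b*, beside 7.15% of all promoters with at least 1. The *Lin28b* window (chr10:45470152-45470451) lies inside the counted gene, whose 5′ end is at 45486395. The GC box (GGGCGG on either strand), found in 35.7% of all promoters, stood 4 times in each of the 2 *Hmga1* windows, 2 times in that of *Igf2bp2* and 1 time in that of *Hmga2*. The 2 *Hmga1* windows overlap and hold the same 4 sites. The windows of *Hmga2*, which had the largest difference, and of *Igf2bp3*, the 1 window with 2 E-boxes, on the minus strand and with these motifs in capitals, read as follows.
*Hmga2*, chr10:120476420-120476719: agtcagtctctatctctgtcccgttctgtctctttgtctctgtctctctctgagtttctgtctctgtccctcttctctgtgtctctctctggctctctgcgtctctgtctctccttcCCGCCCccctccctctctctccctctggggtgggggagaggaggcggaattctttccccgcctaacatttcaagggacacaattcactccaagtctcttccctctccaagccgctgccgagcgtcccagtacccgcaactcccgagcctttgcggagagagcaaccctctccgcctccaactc
*Igf2bp3*, chr6:49214905-49215204: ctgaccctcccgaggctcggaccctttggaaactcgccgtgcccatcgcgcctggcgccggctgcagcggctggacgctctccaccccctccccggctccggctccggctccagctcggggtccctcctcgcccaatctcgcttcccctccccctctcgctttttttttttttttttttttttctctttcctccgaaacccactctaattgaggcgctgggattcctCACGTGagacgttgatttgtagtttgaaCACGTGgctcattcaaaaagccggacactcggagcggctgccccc

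Genes of let-7 processing stayed within 2-fold or did not pass the test. Of 21 genes of let-7 processing and the LIN28 pathway 19 were tested. None was called by the quasi-likelihood test of edgeR with p adjusted after Benjamini and Hochberg. An unadjusted p under 0.05 was found for 14 of them, beside 8817 of all 16887 genes tested. DESeq2 also called 0. With no limit on the fold, 6 were higher and 4 lower, beside 21.5% higher and 22.9% lower over all genes, and the list median was 0.2. Under upper quartile scaling the split was 4 higher and 5 lower. The Argonautes, which carry mature microRNAs, went both ways. *Ago2* rose by a log2 fold change of 0.56 ± 0.12 (SE; adjusted p = 0.00462), while *Ago1* fell by 0.46 on the log2 scale (adjusted p = 0.000585) and *Ago4* by 0.74 (adjusted p = 0.00108), both below the limit of 1. *Dicer1*, which cuts the precursors, fell by 0.33 (adjusted p = 0.0087). *Tut4* and *Tut7*, which add uridines to let-7 precursors bound by LIN28, had log2 fold changes of -0.2 and -0.14, and *Dis3l2*, which degrades the uridylated precursors, of 0.11 (adjusted p from 0.0689 to 0.332). *Trim71*, a let-7 target and partner in early development, had 20.3, 9.95, 35.5 and 32.2 normalized counts in mutant and 10.1, 5.64, 15.6 and 13.7 in wild-type replicates 1 to 4. Its log2 fold change of 1.12 ± 0.44 (SE) did not pass the test (adjusted p = 0.0606).

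Of 43 other known let-7 targets 41 were tested, 2 were called higher and 2 lower, beside 5.90% and 8.05% of all genes, and the list median was 0.09. The called genes were the growth regulator *Myc*, the angiogenesis inhibitor *Thbs1*, *Mycn*, a relative of *Myc* typical of neural progenitors, and *Igdcc3*, which encodes a cell surface protein of the immunoglobulin superfamily. *Thbs1* rose from 1271 ± 430 to 6206 ± 1154 normalized counts (SD, n = 4 each), a log2 fold change of 2.29 ± 0.22 (SE; adjusted p = 3.62e-05 by edgeR's quasi-likelihood test). *Myc* rose from 1139 ± 109 to 2622 ± 454 (log2 fold change 1.2, adjusted p = 5.71e-05). *Mycn* fell from 1114 ± 176 to 434 ± 158 (log2 fold change -1.36, adjusted p = 0.000696) and *Igdcc3* from 227 ± 14.5 to 65.4 ± 15.6 (log2 fold change -1.79, adjusted p = 4.28e-05). Neural progenitor markers were lower in the same libraries, 5 of 6 called with a median log2 fold change of -1.92, and their part in the fall of *Mycn* and *Igdcc3* was not tested. With no limit on the fold, 13 let-7 targets were higher and 9 lower, beside 21.5% and 22.9% of all genes. *Cdk6* (0.85) and *Fndc3b* (0.88) were among the former and *Igf1r* (-0.82), *Ccnd2* (-0.78) and *Ccnd1* (-0.56) among the latter, each below the limit for a call.

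Of 21 partner proteins of the IGF2BPs and m6A enzymes and readers all were tested and none was called by edgeR or by DESeq2. In edgeR 13 had an unadjusted p under 0.05, beside 8817 of all 16887 genes tested. At an adjusted p under 0.05 without the fold limit 10 were higher and 1 lower (7 and 1 under upper quartile scaling), beside 21.5% and 22.9% of all genes, and the median log2 fold change was 0.17. The m6A readers *Ythdf2* (0.46 ± 0.11, SE) and *Ythdf3* (0.36 ± 0.1), the mRNA-stabilizing protein *Elavl1* (0.38 ± 0.09) and the poly(A)-binding protein *Pabpc1* (0.37 ± 0.07) were among those higher (adjusted p from 0.00206 to 0.0142). The methyltransferase subunits *Mettl3* and *Mettl14* had log2 fold changes of -0.1 and 0.06 (adjusted p = 0.396 and 0.598).

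Of 12 known IGF2BP client mRNAs, 3 were called, each higher, beside 5.90% of all genes called higher, with a list median of 0.07. These were *Myc*, the long noncoding RNA *H19* and *Ptgs2*, which encodes the prostaglandin synthase COX-2. *Ptgs2* rose from 8286 ± 1299 to 25825 ± 3940 normalized counts (SD, n = 4 each; log2 fold change 1.64 ± 0.14, SE; adjusted p = 1.41e-05, edgeR). *Igf2*, the mRNA that gave the family its name, had 2919 ± 631 normalized counts in mutant and 3186 ± 604 in wild-type libraries, with a log2 fold change of -0.13 ± 0.16 (SE; adjusted p = 0.553, edgeR). *Cd44* (0.61 ± 0.46, SE) and *Ctnnb1* (-0.03 ± 0.07) did not pass the test either.

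Among imprinted and other fetal growth genes, *Mest* had a larger difference than any oncofetal gene but *Hmga2*. Of 15 such genes in the files 13 were tested, and 3 were called, each higher, beside 5.90% of all genes, with a list median of 0.61. With no limit on the fold, 8 were higher and 2 lower, beside 21.5% and 22.9% of all genes. *Mest* (chr6:30723547-30748465, plus strand), a paternally expressed gene of mesoderm and fetal growth, had 27463, 24633, 17252 and 19269 normalized counts in mutant replicates 1 to 4. In wild-type replicates 1 to 4 it had 942, 1026, 1001 and 855. All mutant libraries lay far above all wild-type libraries, and replicate 4 was not the highest of them. The log2 fold change of *Mest* was 4.53 ± 0.16 (SE; adjusted p = 1.27e-07, edgeR), and within the labelled sets it was 4.72, 4.1 and 4.49. *Copg2* overlaps it on the opposite strand with 919 to 1948 counts. *H19*, a maternally expressed RNA, rose from 514 ± 66.6 to 1504 ± 484 normalized counts (log2 fold change 1.55 ± 0.2, SE; adjusted p = 0.000189). *Dlk1*, a paternally expressed Notch ligand relative, rose from 85.3 ± 45.9 to 212 ± 41.4 (log2 fold change 1.31 ± 0.33, SE; adjusted p = 0.00899). *Zfp57*, which protects imprints, had a log2 fold change of 0.96 and *Cdkn1c*, a growth inhibitor, had a log2 fold change of -0.65, both at an adjusted p under 0.05.

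All 11 genes of other HMG families were tested and stayed below the limit for a call in edgeR and in DESeq2. In edgeR 7 had an unadjusted p under 0.05, beside 8817 of all 16887 genes tested. The median log2 fold change was 0.03, or -0.03 under upper quartile scaling. *Hmgn5* (0.6 ± 0.08, SE) and *Hmgb3* (0.38 ± 0.07) were higher and *Hmgxb4* (-0.56 ± 0.09) lower (adjusted p from 0.000189 to 0.00121, edgeR). *Hmgb1*, the most abundant by normalized counts, had a log2 fold change of 0.1 ± 0.07 (SE; adjusted p = 0.253). The markers of proliferating cells, a process in which HMGA genes are often discussed, summed to 588 to 674 CPM in mutant and 568 to 716 CPM in wild-type libraries. Of these 8 markers 2 were higher and 1 lower at an adjusted p under 0.05 (edgeR), beside 21.5% and 22.9% of all genes.

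**Figure D4:**
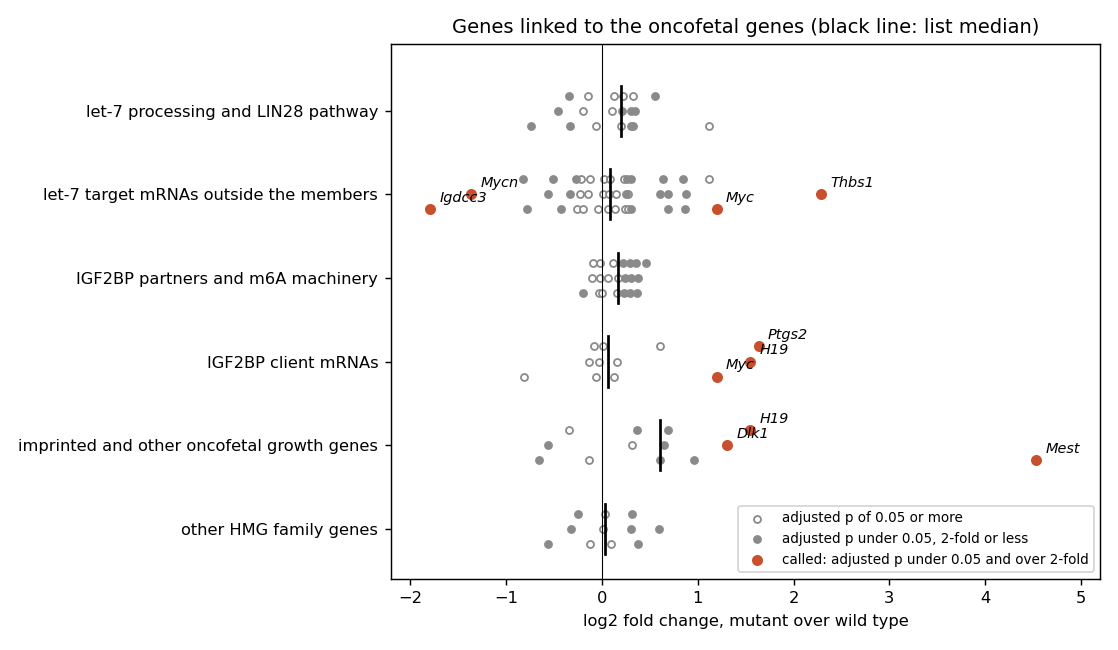
Log2 fold change, mutant over wild type, of genes in 6 lists linked to the oncofetal genes. Open points have an adjusted p of 0.05 or more, grey points pass the adjusted p only, and red points with names were called. List medians (black lines) run from 0.03 for other HMG genes to 0.61 for imprinted and other oncofetal growth genes, and *Mest* lies farthest out at 4.53.

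The genes most like each oncofetal gene over the 8 libraries were found by Pearson correlation of log2 CPM, among the genes whose group mean reached 100 normalized counts in at least 1 group. The points are 4 mutant and 4 wild-type libraries, so a shared group difference alone gives a high value, and the correlations are a description. Closest to *Hmga2* were *Abcf2* (r = 0.996), *Eif1ax* (0.996) and *Ipo5* (0.995), with log2 fold changes of their own of 0.37 to 0.64. Closest to *Hmga1* were *Rchy1* (0.999), *Gnpda1* (0.998) and *Zfp334* (0.996), and to *Igf2bp3* *Igsf3* (0.985), *Pter* (0.984) and *Fhod1* (0.981). For *Igf2bp2* they were *Trnt1* (0.994), *Camsap1* (0.979) and *Mrpl32* (0.977). *Igf2bp1* was nearest to *Rdh10* (0.961), *Cd79b* (0.96) and *Fbxo30* (0.95), and *Lin28b* to *Ppp1r3b* (0.925), *Tmem131* (0.923) and *Fbxl17* (0.916).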

How the data were processed

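RNA sequencing of 8 brain EC libraries was used, 4 per group, each from 1 pup and grouped by the sample titles. The authors trimmed the reads, mapped them to GRCm38 with STAR and deposited raw counts per gene without normalization. The submitters' processing notes name DESeq2. The counting program, annotation release and use of strand are not given in the sources used here. A second deposited set, the same counts divided by 1 constant per library, was not used. Of 49315 identifiers, 49056 matched GENCODE vM21, which gave symbols, untranslated regions and coding sequences, and 44737 had the same position in it.

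Counts were fitted in R 4.3.3 with edgeR 4.0.16 (TMM scaling, filterByExpr with a minimum count of 10, glmQLFit and glmQLFTest without covariates). P-values were adjusted by Benjamini-Hochberg over 16887 genes. A call needed an adjusted p below 0.05 and a log2 fold change beyond 1 in either direction. Log2 CPM used a prior count of 2. In simulated data of 16887 genes with 200 changed by a log2 fold of 2, 197 were called, as were 7 unchanged genes. Replicates of a group differed by more than sampling noise (chi-square per degree of freedom 7.25 to 41.6 over 12 pairs), so each counted as 1. Libraries held 24833373 to 34196955 counts, at which variation among pups limits precision except for *Lin28b*, *Lin28a* and wild-type *Hmga2*.

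The genes and lists were chosen with earlier results of these data known. Named genes are the 6 members, *Lin28a*, *Map2k1*, up to 6 called genes of each list, genes of the let-7 processing list, and the 3 genes most like each member. Other genes named from the lists below the limit for a call, the markers, *Hmga1b*, and genes overlapping a named gene were chosen after their values were seen. In the list of imprinted genes, *Gtl2* is an older symbol of *Meg3* and was not matched separately. Alternatives were RLE and upper quartile scaling, DESeq2 1.42.0, other filters on low counts, the replicate number or label prefix as a block, no fold limit, a TPM scale, the 8-base match, and each library left out in turn. Sequences came from RefSeq and GENCODE and were read with Python 3.11.15 and Biopython 1.88, and proteins were not analysed here.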

Additional observations from a re-analysis of the deposited data

Results flagged for a closer look

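In 2 of 20 groups of 4 libraries examined for a single library far from the others, such a library was found, and chance flags about 1 in 20 groups. Both involve mutant replicate 4. For *Hmga2* it stood at 1086 normalized counts, and its gap to the next library took up 0.905 of the whole range of the group, above the critical value of 0.829. For *Igf2bp2* it stood at 541 normalized counts, with a gap of 0.861 of the range. The values without this library are given with each gene above, and what sets it apart was not tested.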

How the results depend on the processing

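Over all genes 2356 were called, against 2168 to 2662 with 1 library left out and 7504 with no fold limit. The 3 calls among the oncofetal genes ranged from 1 to 3 with 1 library left out, and the 1 came without mutant replicate 4. The direction of *Igf2bp1* (-0.06) turned to 0.06 without mutant replicate 1, 0.1 without mutant replicate 2, 0.01 without wild-type replicate 3 and 0.1 without wild-type replicate 4, a range of -0.24 to 0.1, all within its standard error. *Igf2bp3* was at 0.97 under upper quartile scaling, which moved the median of all genes to -0.09. For let-7 processing the count of 0 became 1 (*Trim71*) without mutant replicate 2, with the replicate block and with a block on the label prefix, and ranged from 0 to 1 over the libraries left out. With no fold limit the counts were 10 for let-7 processing, 22 for let-7 targets, 11 for IGF2BP partners, 10 for imprinted genes and 7 for other HMG genes. Over all genes tested the share was 44.4%. *Hmga1* (0.96 to 1.15) was called in 7 of 8 fits with 1 library left out, *Igf2bp3* (0.92 to 1.19) in 5 of 8 and *Hmga1b* (0.85 to 1.35) in 4 of 8. Since the oncofetal genes were chosen on this contrast, how often they were called describes the fits and supports nothing. The calls reported for *Map2k1* and for genes of the 6 linked lists held in every fit. Beside the single change for *Trim71*, the replicate block changed no call of the 6 oncofetal genes, *Map2k1*, *Hmga1b* or the called genes of the linked lists. It gave 2431 called genes in all. Cell type markers and the genes found by correlation were not followed one by one over the fits. Deviations of same-numbered libraries correlated at 0.2, 0.21, 0.29 and 0.02 for replicates 1 to 4, so 3 of 4 pairs deviated together, while mutant replicate 4 correlated best with wild-type replicate 3 (0.38). Mutant replicate 1 with wild-type replicate 2, and mutant 2 with wild-type 1, which share a label prefix, correlated at 0.17 and 0.25. The main fit held no block, although the study matched pups by litter, because the labels do not say what marks a litter. Standard errors of that fit can be wider for this reason. For *Hmga2* the standard error was 0.6 in the main fit and 0.36 with the replicate block. The block on the label prefix gave 2456 called genes. Depth limits *Lin28b* (16 to 25 counts per library) and *Hmga2* in wild-type ECs (7 to 14).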

Other observations

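Genes of the let-7 precursors themselves were hardly seen in these poly(A) libraries. *Mirlet7c-2* had 7 ± 2.32 normalized counts in mutant and 10.9 ± 3.14 in wild-type libraries (SD, n = 4 each), and *Mirlet7i* had 4.02 ± 4.01 and 3.09 ± 2.43, so no level of mature let-7 can be read from them. Over all genes tested, genes were also grouped by the number of 8-base let-7 matches in the 3′UTR. The median log2 fold change was -0.03 for 13651 genes with no match, 0.02 for 493 genes with 1 match, -0.13 for 19 genes with 2 and -0.06 for 7 genes with 3 or more. The medians are a description of this contrast and were not tested.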
